A study of Homo sapiens with 4 samples.

Results

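The 8 genes VIM, CDH1, CDH2, FN1, ZEB1, ZEB2, SNAI1 and SNAI2, which mark or drive the epithelial-mesenchymal transition (EMT), were chosen by their symbols, and all 8 of them are among the 16834 genes of the deposited table. They were compared across 4 conditions of a human pancreatic ductal adenocarcinoma line labelled MIA PaCa-2 and wild type: control, 1 µM NBT (neobractatin, a natural product of Garcinia), 5 µM trametinib (which blocks the kinase MEK), and a combination of both at those doses. The cells were collected after 12 h. Each condition was 1 RNA-seq library of 18776212 to 19614763 estimated reads, so no value has a replicate, differences include an unmeasured variation between cultures, and no p-value is given. The 3 comparisons against the control share that library. In bulk RNA, fewer cells with a transcript and less of it per cell cannot be told apart.

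EMT is a programme in which epithelial cells loosen their junctions and take on the shape and motility of mesenchymal cells. E-cadherin, encoded by CDH1, holds epithelial cells together, whereas N-cadherin (CDH2), the intermediate filament protein vimentin (VIM) and the matrix protein fibronectin (FN1) are the classical mesenchymal products. The zinc finger proteins SNAIL (SNAI1), SLUG (SNAI2), ZEB1 and ZEB2 repress CDH1 by binding E-box sequences, and ERK, the kinase downstream of MEK, is one of several inputs to them. In pancreatic cancer the programme is linked to invasion and drug resistance.

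The labels were first set against the genes. MIA PaCa-2 is known as a poorly differentiated line with abundant vimentin and ZEB1, little E-cadherin, and a deletion that removes CDKN2A and MTAP. The libraries showed other features. CDKN2A, which encodes the cell cycle inhibitor p16, had 2643 to 3524 reads per library, and MTAP, its neighbour, had 815 to 1151. KRT5 and TP63, genes of basal epithelium, had 14518 to 67741 and 1565 to 2863 reads. These 4 genes were chosen after their values were seen. The cell line entry of the labels also carries a different number for each library, and the samples are therefore called here the libraries labelled MIA PaCa-2. Of 8 ductal epithelial markers listed, 6 were in the table, with EPCAM at 3113 to 3502 reads and KRT7 at only 33 to 77.

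Levels between genes were compared as TPM, which is scaled to gene length and to the library sum. SNAI2 (NCBI Gene 6591, chromosome 8, 48917598 to 48921429, GRCh38) was the highest of the 8 genes in each library, with 93.84 TPM in the control library, 68.23 under NBT, 94.21 under trametinib and 74.92 under the combination. CDH1 followed, with 85.43, 51.21, 86.91 and 57.01 TPM in the same order. The 95% counting intervals of the pair, Poisson intervals that cover counting error only, did not overlap in any of the 4 libraries (in the control library 89.7 to 98.1 TPM for SNAI2 and 82.8 to 88.2 for CDH1). Both lay in the upper part of the table, above 81.9% to 89.5% of the genes.

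VIM and FN1 came next. VIM had 11.48 TPM in the control library, 13.01 under NBT, 23.46 under trametinib and 26.39 under the combination, and FN1 had 13.38, 7.46, 11.99 and 8.96. In the control their intervals overlapped (9.95 to 13.2 TPM for VIM and 12.6 to 14.2 for FN1), and in the 3 treated libraries VIM was above FN1 beyond counting error. ZEB1 was lower, at 1.04 to 2.61 TPM. SNAI1 had 0.06 to 0.58 TPM, and CDH2 and ZEB2 had at most 0.08 and 0.02 TPM. The profile thus joined a high E-cadherin mRNA level to a high SLUG mRNA level, with little ZEB1 and hardly any N-cadherin, ZEB2 or SNAIL mRNA. Of the summed TPM of the 4 repressor genes, SNAI2 made up 95.5% to 98.5%.

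**Figure D1:**
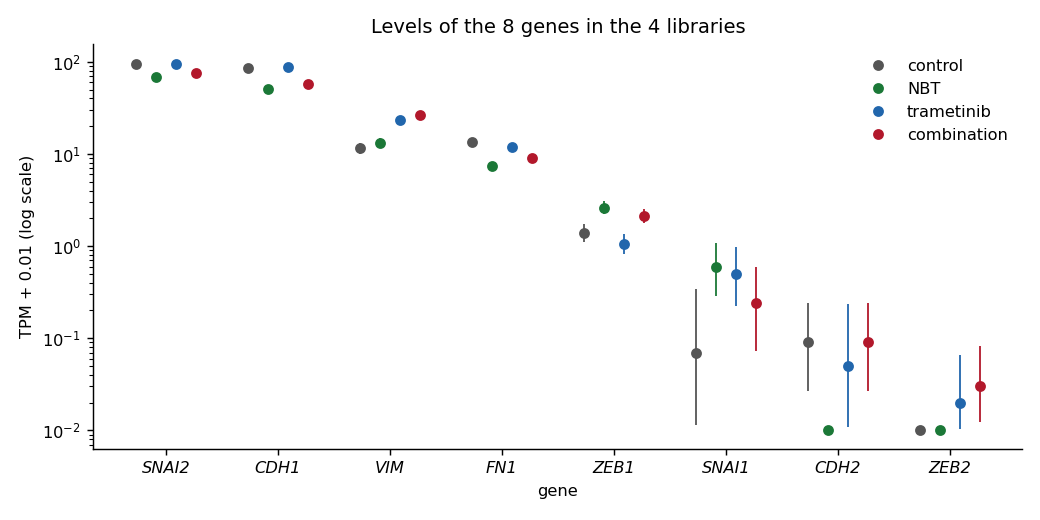
TPM plus 0.01 on a log axis for each of the 8 genes (ordered by mean TPM) in the 4 libraries, 1 point per library, with bars for 95% Poisson counting intervals, which are drawn where the library had at least 1 read. SNAI2 and CDH1 stand between 51.21 and 94.21 TPM, and CDH2 and ZEB2 at or under 0.08 TPM.

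In reads, 5 of the genes reached 100 in at least 1 library, SNAI1 reached 10, and CDH2 and ZEB2 stayed at or under 3. For the comparisons, estimated reads were rounded and scaled to the library sums, and log2 ratios were computed with 0.5 reads added. A gene is described as called where the exact binomial test of its reads in 2 libraries passed an adjusted value of 0.05 over all genes and the ratio reached 1 on the log2 scale, the limits of the study's methods. Such a call compares 2 libraries and not 2 conditions, and intervals of ratios are 95% Clopper-Pearson intervals of the counts. These intervals cover counting error only, and the term is used here for what they span. Amplified reads are not independent molecules, so the intervals may be too narrow even for that. None of the calls of the 8 genes remained in a negative binomial test that assumed a coefficient of variation of 0.2 between cultures.

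VIM (NCBI Gene 7431, chromosome 10, 17228241 to 17237593, GRCh38) had 202 reads in the control library and 249 under NBT, against 425 under trametinib and 500 under the combination. The libraries under trametinib were thus the high ones. The log2 ratio against control was 1.06 (0.81 to 1.31) under trametinib and 1.24 (1.01 to 1.49) under the combination, both called, and 0.25 (-0.02 to 0.53) under NBT alone, an interval that includes 0. Among all genes, 3.82% were called higher and 2.15% lower under trametinib, and 4.73% and 3.69% under the combination. VIM was the only 1 of the 8 genes called in these comparisons. The trametinib value sits at the limit, since it was 0.98 with edgeR's TMM factors and 0.99 with median-of-ratios factors, where VIM was not called.

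The combination library was also compared with the NBT library, a pair that holds neither the control nor the trametinib library. VIM was higher in the combination by a log2 ratio of 0.99 (0.77 to 1.22), just short of the limit, and none of the 8 genes was called in this pair, where 2.38% of all genes were called higher and 1.99% lower. VIM is also made by blood, vessel and stromal cells, so their markers are given beside it, although the labels name a cell line. CD3E had 0 reads in the control library and under NBT, 55 under trametinib and 29 under the combination, and VWF had 3, 4, 25 and 6. The leukocyte marker PTPRC had 8 to 17 reads, CD68 had 1503 to 2400 with the lowest values in the libraries under trametinib, PECAM1 had 14 to 26 and CDH5 at most 2. Of the fibroblast markers, LUM was in the table, with 5 reads in the trametinib library and 0 in the others. The summed TPM of the 3 leukocyte markers was 130 and 140 in the control and NBT libraries and 96.9 and 102 in the trametinib and combination libraries. Nearly all of it was CD68, with 129, 139, 91.9 and 99.2 TPM in the same order. The summed TPM of the 3 endothelial markers was 0.29 to 0.67. The part of other cells in the VIM values was not tested.

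The estimated reads of VIM were assigned almost wholly to the predicted RefSeq transcript XM_006717500.2, with 97.4% to 100% of the transcript TPM, and the curated NM_003380.5 received at most 14.78 reads. The split rests on how shared reads were divided. On the opposite strand, exons of VIM-AS1 share 641 bases with VIM exons in GENCODE v29, and, as the sources used here do not state stranded counting, antisense reads cannot be told apart.

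CDH1 (Gene 999, chromosome 16, 68737292 to 68835537) differed between the libraries more by NBT than by trametinib. It had 3912 reads in the control library and 4086 under trametinib, and 2539 under NBT and 2804 under the combination. Both libraries under NBT were below both without it. The log2 ratio was -0.67 (-0.75 to -0.60) under NBT, -0.54 (-0.61 to -0.47) under the combination and 0.05 (-0.01 to 0.11) under trametinib. Added to trametinib, NBT gave -0.59 (-0.66 to -0.52). Added to NBT, trametinib gave 0.13 (0.05 to 0.21). The 3 negative values lay outside counting error, corresponded to ratios of 0.627 to 0.686 after scaling to the library sums, and did not reach the limit. The interval of trametinib alone includes 0, and that of trametinib added to NBT does not. The sign of the value for trametinib alone depended on scaling, being -0.03 with TMM factors and -0.02 with median-of-ratios factors.

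The NM_004360.5 transcript of CDH1 took 85.5% to 93.7% of the transcript TPM in the 4 libraries. NM_001317184.2 was estimated at 94 to 203 reads in 3 libraries and at 0 in the combination, a difference that rests on the division of shared reads. CDH3, which encodes P-cadherin, another classical cadherin of basal epithelium, had 6818 reads in the control library, 5076 under NBT, 7428 under trametinib and 5390 under the combination, so the libraries under NBT were again the low ones. CDH3 had the higher TPM of the pair. The CDH1 to CDH3 ratio was 0.41 in the control library, 0.36 under NBT, 0.39 under trametinib and 0.37 under the combination.

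CDH2 (Gene 1000, chromosome 18, 27932879 to 28177130) had 3, 0, 1 and 3 reads in the control, NBT, trametinib and combination libraries. No ratio was computed, as these counts are at or under the floor of 3 reads, which equals 0.153 to 0.160 CPM. An exchange of E-cadherin mRNA for N-cadherin mRNA was not detectable at this depth.

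FN1 (Gene 2335, chromosome 2, 215360865 to 215436068) had 1058 reads in the control library, 645 under NBT, 971 under trametinib and 762 under the combination. As for CDH1, the libraries under NBT were the low ones, although FN1 is a mesenchymal product and CDH1 an epithelial one. The log2 ratio was -0.76 (-0.91 to -0.62) under NBT, -0.14 (-0.26 to -0.01) under trametinib and -0.54 (-0.67 to -0.40) under the combination. None of them reached the limit. Reads of FN1 were spread over 27 RefSeq transcripts, of which none took more than 16.2% of the transcript TPM in a library, so its splice forms were not compared.

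ZEB1 (Gene 6935, chromosome 10, 31318417 to 31529804) was higher where NBT was present. It had an estimated 84 reads in the control library and 64 under trametinib, and 168 under NBT and 134 under the combination. The log2 ratio was 0.95 (0.56 to 1.35) under NBT, 0.61 (0.21 to 1.02) under the combination and -0.40 (-0.90 to 0.08) under trametinib. When NBT was added to trametinib the value was 1.01 (0.58 to 1.47), and ZEB1 was the 1 gene of the 8 called in that pair, where 2.56% of all genes were called higher and 3.55% lower. The call was lost with 5 added reads and with the deposited TPM values (0.96 in both cases). The level stayed low throughout, and reads were spread over 25 transcripts. Exons of the antisense gene ZEB1-AS1 share 366 bases with ZEB1.

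To show the promoters of members whose levels differed between these libraries, the 250 bases before a RefSeq start (GRCh38.p14) are printed for FN1, ZEB1 and VIM, 5′ to 3′ on the gene's strand. Capitals mark exact matches to the E-box that SNAIL and ZEB proteins bind (CACCTG or its reverse complement CAGGTG), to the cyclic AMP response element TGACGTCA, to the AP-1 motif TGANTCA and to the CCAAT box (CCAAT or its reverse complement ATTGG). The motifs do not overlap in these windows. For CDH1, SNAI1 and SNAI2 none is printed.
FN1, chr2:215436069-215436318, minus strand: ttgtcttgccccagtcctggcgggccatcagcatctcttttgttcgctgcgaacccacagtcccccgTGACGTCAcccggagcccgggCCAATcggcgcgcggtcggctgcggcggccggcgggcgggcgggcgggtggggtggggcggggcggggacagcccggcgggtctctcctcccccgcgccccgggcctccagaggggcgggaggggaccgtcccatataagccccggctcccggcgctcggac
ZEB1, chr10:31318167-31318416, plus strand: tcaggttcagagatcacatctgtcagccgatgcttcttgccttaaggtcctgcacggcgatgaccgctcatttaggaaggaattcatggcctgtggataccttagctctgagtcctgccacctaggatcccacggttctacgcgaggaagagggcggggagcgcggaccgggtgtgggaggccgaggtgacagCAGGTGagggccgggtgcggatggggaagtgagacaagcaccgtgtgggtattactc
VIM, chr10:17227991-17228240, plus strand: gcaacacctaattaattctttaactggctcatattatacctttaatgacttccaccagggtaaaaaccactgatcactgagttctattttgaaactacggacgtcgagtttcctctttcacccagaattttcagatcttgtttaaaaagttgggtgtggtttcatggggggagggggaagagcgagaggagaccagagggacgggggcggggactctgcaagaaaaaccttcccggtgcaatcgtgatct

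The FN1 window held TGACGTCA, beginning 183 bases before the start, and a CCAAT box 162 bases before it. The ZEB1 window at the gene's first start held 1 E-box, 57 bases before that start, and of the other ZEB1 windows (7 in all, for as many starts) that of chr10:31318966-31319215 held E-boxes 242 and 85 bases before its start. The VIM window, taken before the outermost start of the gene, held none of the motifs. Whether XM_006717500.2, to which most VIM reads were assigned, begins at that start was not checked. For comparison, the E-box stood in 17.5% of 35116 windows of the same length, TGACGTCA in 1.65%, TGANTCA in 6.57% and the CCAAT box in 32.0%. A match is a run of letters and does not show that a factor binds there.

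The repressors of the SNAIL family came next. SNAI2 had 1929 reads in the control library, 1520 under NBT, 1989 under trametinib and 1652 under the combination. The order of the libraries was that of CDH1, the gene its protein represses, with both NBT libraries low. The log2 ratio was -0.39 (-0.49 to -0.30) under NBT, -0.29 (-0.38 to -0.19) under the combination and 0.03 (-0.06 to 0.12) under trametinib, none of them past the limit. The trametinib value was -0.04 with TMM factors and -0.03 with median-of-ratios factors.

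SNAI1 (Gene 6615, chromosome 20, 49982980 to 49988886) had 1 read in the control library, 10 under NBT, 8 under trametinib and 4 under the combination. The ratio to control, here with no reads added, was 9.66 under NBT (1.37 to 419), 7.93 under trametinib (1.06 to 352) and 3.83 under the combination (0.379 to 189). With NBT it was called, the 1 gene of the 8 called in that comparison, where 1.6% of all genes were called higher and 1.01% lower. The width of these intervals comes from the single control read, and with 5 added reads the NBT value dropped from 2.76 to 1.27 on the log2 scale. ZEB2 (Gene 9839, chromosome 2, 144384081 to 144520119) had 0 reads in the control and NBT libraries, 1 under trametinib and 2 under the combination, and no ratio was computed.

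**Figure D2:**
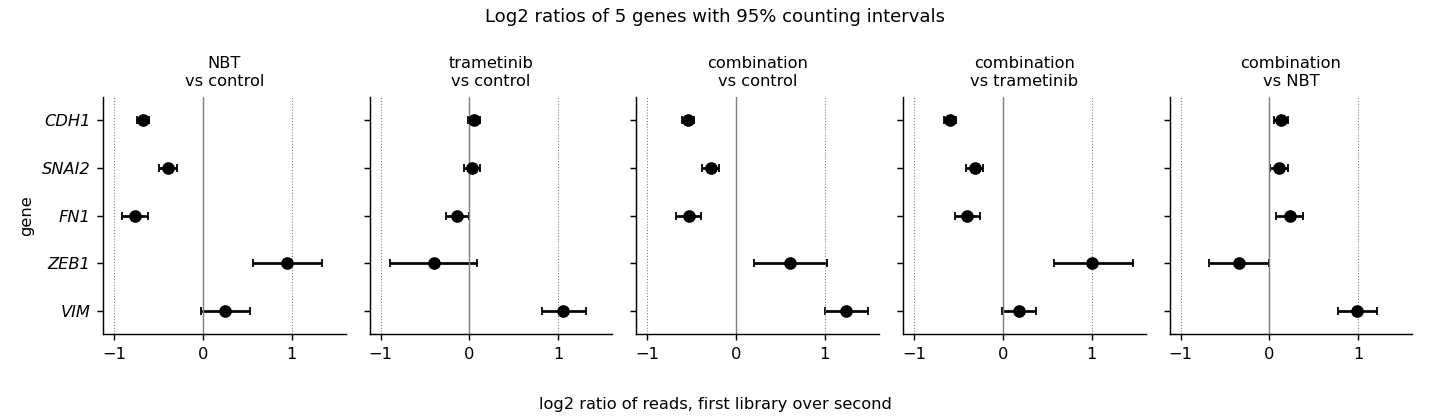
Log2 ratios of scaled reads (x axis) of the 5 genes with at least 100 reads in some library, in 5 pairs of libraries, with 95% Clopper-Pearson counting intervals as bars and dotted lines at 1 and -1. CDH1, SNAI2 and FN1 lie below 0 and ZEB1 above 0 for NBT against control, the combination against control and the combination against trametinib, and VIM lies between 0.99 and 1.24 for trametinib against control, the combination against control and the combination against NBT.

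The design allows each drug's ratio to be read in 2 pairs that share no library, without and with the other drug. For NBT, CDH1 (-0.67 and -0.59), SNAI2 (-0.39 and -0.32), FN1 (-0.76 and -0.40), ZEB1 (0.95 and 1.01) and VIM (0.25 and 0.18) had the same sign in both. For trametinib, VIM gave 1.06 and 0.99 and ZEB1 gave -0.40 and -0.34, whereas CDH1 (0.05 and 0.13) and SNAI2 (0.03 and 0.11) were close to 0 in both. On top of NBT, however, the intervals of CDH1 (0.05 to 0.21) and SNAI2 (0.006 to 0.21) did not include 0. For SNAI2 this depended on scaling, as its value was 0.07 with TMM factors and 0.08 with median-of-ratios factors. The difference between the combination and the sum of the single-drug log2 ratios was within counting error of 0 for 4 of these 5 genes, from -0.07 (-0.39 to 0.26) for VIM to 0.08 (-0.02 to 0.18) for CDH1. The interval was widest for ZEB1, at 0.06 (-0.51 to 0.64), so a sizeable departure of ZEB1 is not excluded. For FN1 it was 0.36 (0.17 to 0.56), as its NBT value was nearer to 0 in the presence of trametinib. Without replicates, the variation between cultures is not part of these intervals.

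**Figure D3:**
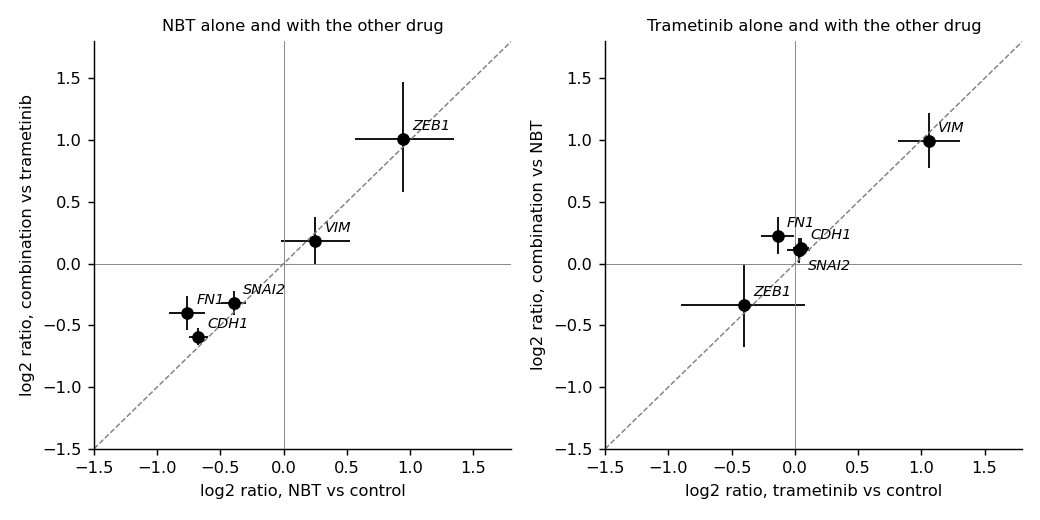
Log2 ratio of each drug alone (x axis) against its log2 ratio on top of the other drug (y axis) for 5 genes, with 95% counting intervals and a dashed line of equality. ZEB1, VIM, CDH1 and SNAI2 lie on or near the line, and FN1 lies above it. The vertical distance of a gene from the line is the same quantity in both panels, so the second panel is no further support for it.

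The CDH1 to VIM ratio of TPM was 7.44 in the control library, 3.94 under NBT, 3.70 under trametinib and 2.16 under the combination. The nearly equal values of the single drugs came with a lower CDH1 level under NBT and a higher VIM level under trametinib, and the combination library had both. This ratio holds only 1 mesenchymal product. FN1, the other one with at least 100 reads, had 13.38, 7.46, 11.99 and 8.96 TPM in the same order, low where CDH1 was low. The SNAI2 to ZEB1 ratio of TPM was 68.0 in the control library and 90.6 under trametinib, and 26.1 under NBT and 35.3 under the combination.

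Other genes of the programme were taken from 8 lists by role. Of 19 genes of epithelial junctions and polarity, 3 rose under trametinib (CLDN3, TJP3 and DSC2) and none fell, 4 rose under the combination (CLDN3, CLDN4, OCLN and DSC2), and under NBT CGN fell. In the control, NBT, trametinib and combination libraries, CLDN3 had only 1, 5, 13 and 11 reads. TJP3 had 9, 11, 39 and 18, so the calls of CLDN3 and TJP3 rest on few reads. Over all genes tested, 3.82% were called higher and 2.15% lower under trametinib, 4.73% and 3.69% under the combination, and 1.6% and 1.01% under NBT, and the counts of this and the following lists, which are small and were not tested, are to be set against these shares. The medians over the genes with at least 10 reads were 0.39, 0.51 and -0.14, beside 0.08, 0.04 and 0.00 over all genes with as many reads. CLDN4, a tight junction claudin, had 3079 reads in the control library, 4257 under NBT, 2935 under trametinib and 8707 under the combination, so it stood apart in the combination. DSC2, a desmosomal cadherin, had 346, 387, 785 and 850 reads, the higher values being those under trametinib, as for VIM. CGN, which encodes cingulin, had 432, 213, 846 and 236 reads.

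Among 8 regulators of epithelial identity, ELF3 and EHF rose under trametinib and GRHL1 and EHF under the combination, and ELF3 fell under NBT, where 3.82%, 4.73% and 1.01% of all genes were called in those directions. The calls of EHF rest on few reads, 8, 21, 24 and 31 in the control, NBT, trametinib and combination libraries. The medians were 0.44 under trametinib, 0.66 under the combination and -0.17 under NBT. ELF3, an ETS factor of differentiated epithelium, had 225 reads in the control library, 94 under NBT, 3502 under trametinib and 417 under the combination. Trametinib alone stood far above the rest, at a log2 ratio of 3.94. ESRP1, a splicing factor of epithelial cells, had 1894, 2641, 2647 and 3802 reads and was not called against the control. None of 3 catenins, the cytoplasmic partners of the cadherins, was called in any comparison, and with so few genes the shares over all genes also give less than 1 call in each.

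Of 25 mesenchymal products, 22 were in the table. Those that fell under trametinib included MMP2, MMP14 and CD44, and 2 rose (COL1A1 and NT5E), under the combination 4 fell (LOXL2, MMP2, MMP14 and CD44), and under NBT LOXL2 fell. Of all genes, 2.15%, 3.69% and 1.01% were called lower in these comparisons. The call of NT5E rests on few reads, 3, 2, 20 and 10 in the control, NBT, trametinib and combination libraries. The medians were -0.28 under trametinib, -0.34 under the combination and -0.28 under NBT, beside log2 ratios of VIM of 1.06 and 1.24 under trametinib and the combination. With the deposited TPM values the trametinib median was -0.47. CD44, a hyaluronan receptor, had 26090 reads in the control library, 25676 under NBT, 6286 under trametinib and 10946 under the combination. MMP14, a membrane-bound matrix protease, had 6927, 8119, 3019 and 3442. LOXL2, a matrix crosslinking enzyme, had 2200, 996, 1823 and 737, the lower values being those under NBT, as for FN1. COL1A2, CDH11, SPARC, S100A4 and FBN1 had at most 4 reads in each library, and AXL, a receptor kinase, had 9932 to 15190 and was not called.

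Of 13 other EMT transcription factors, 12 were in the table. FOSL1, HMGA2 and FOXQ1 fell under trametinib and under the combination, where 2.15% and 3.69% of all genes were called lower. None was called under NBT, where the share of all genes called lower was 1.01%. The calls of FOXQ1 rest on few reads, 27, 19, 2 and 3 in the control, NBT, trametinib and combination libraries. FOSL1, an AP-1 subunit whose gene is an output of ERK, had 11889 reads in the control library, 12386 under NBT, 1268 under trametinib and 4000 under the combination. HMGA2, a chromatin protein that acts on SNAIL and TWIST genes, had 1807, 2027, 434 and 328. TWIST1 had 159 to 179 reads and FOXC1 had 516 to 541, and neither was called in any comparison. PRRX1 and TWIST2 had at most 1 read.

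None of 10 corepressors of SNAIL and ZEB and none of 5 genes of SNAIL protein turnover was called in any comparison, counts that are near the shares of all genes called, 1.01% to 4.73% in each direction. The corepressor medians were 0.02 under trametinib, -0.20 under the combination and -0.13 under NBT. The largest difference from the control among the corepressors was that of EHMT2, a histone H3 lysine methyltransferase, with 1796 reads in the control library and 1072 under the combination (log2 ratio -0.81).

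Of 9 genes of TGF-β input, the best known inducer of EMT, TGFB2 fell under NBT and SMAD7 under the combination, and none was called under trametinib, counts near those that the shares of all genes give for so few genes. TGFB2 had 1611 reads in the control library, 680 under NBT, 1924 under trametinib and 925 under the combination, the order of libraries seen for CDH1. SMAD3 had 1698, 1877, 918 and 1356 reads. The medians of the list were -0.42 under trametinib, -0.38 under the combination and -0.16 under NBT.

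**Figure D4:**
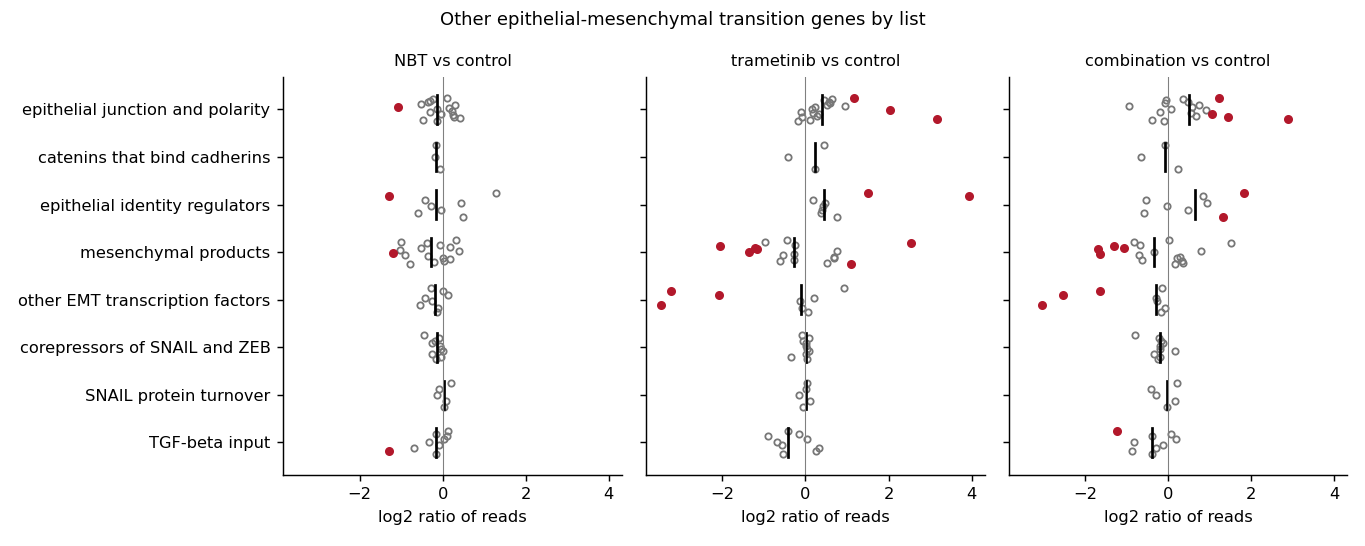
Log2 ratios of scaled reads against the control (x axis) for the genes of 8 lists by role, 1 circle per gene with at least 10 reads in either library. Red circles passed the limits, open circles did not, and vertical bars are list medians, which for mesenchymal products are -0.28 under NBT, -0.28 under trametinib and -0.34 under the combination.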

How the data were processed

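RNA was sequenced on the BGISEQ-500 platform. The submitters' processing notes list Bowtie2 2.2.5, RSEM 1.2.8 and build hg38, without their roles. The authors deposited estimated counts, which are not normalized, and TPM values, which are scaled to length and to a fixed sum, per gene and per RefSeq transcript, whereas the study's methods name FPKM. Filters the authors applied are not given in the sources used here. Estimated counts were rounded (53.9% of genes had a value that was not whole).

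Ratios were scaled to library sums, with 0.5 reads added for log2 ratios and none for ratios on the plain scale. Calls used an exact two-sided binomial test (the smaller tail doubled) with Benjamini-Hochberg adjustment over every gene counted at least 1 time in the pair, and required an adjusted value of at most 0.05 and a log2 ratio of at least 1 in size. A floor of 3 counts was used. The calling step was tested on simulated data. Alternatives are given in the closing section. The members and lists were chosen with earlier results of these data known. Named genes were the members and list genes and, per member with 100 counts, the 3 genes at the smallest Euclidean distance over 3 log2 ratios. Some genes that this rule names are not reported here. Promoters came from RefSeq tables (5 of 8 members matched) and exon overlaps from GENCODE v29. Analyses used Python 3.11.15 (scipy 1.17.1, numpy 2.4.6, pandas 2.3.3). In R 4.3.3, edgeR 4.0.16 and DESeq2 1.42.0 gave the scaling factors, and edgeR also ran the negative binomial test.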

Additional observations from a re-analysis of the deposited data

Results flagged for a closer look

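FN1 took opposite signs for trametinib without and with NBT. The log2 ratio was -0.14 (-0.26 to -0.01) for trametinib against control and 0.23 (0.07 to 0.38) for the combination against NBT. Both intervals exclude no difference, the first only narrowly, and they are not adjusted for the number of genes. With no log2 limit, VIM alone among the members passed the adjusted test for trametinib against control. The negative sign of FN1 is therefore not secure even within counting error. The difference between the FN1 values is the departure from additivity of FN1 given above (0.36), and not a further result. It was not tested over cultures, as each condition had 1 library.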

How the results depend on the processing

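No paired analysis was possible because each condition had 1 library. Of 150 recomputed log2 ratios of the members (5 alternatives each), 4 changed sign, those of CDH1 and SNAI2 with trametinib under TMM and median-of-ratios scaling, and 148 stayed within their counting intervals. Departures from additivity all stayed within theirs (25 values). Called genes among the 8 numbered 1, 1, 1, 1 and 0 for NBT, trametinib and the combination against control, and for the combination against trametinib and against NBT. They became 0 for trametinib under TMM and median-of-ratios scaling, 0 for the combination against trametinib with TPM values or 5 added reads, and 1 for the combination against NBT with TPM values. With no log2 limit they were 5 with NBT, 5 with the combination, and 4 and 3 in the pairs without the control. At a limit of 2 they were 0 for trametinib, the combination and the combination against trametinib, and under a negative binomial test at an assumed coefficient of variation of 0.2 they were 0 in every comparison. With the log2 limit alone, chosen after seeing the data, 1 was called for the combination against NBT.

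Over all genes, in the same order, the calls numbered 414, 966, 1366, 998 and 709. Raising the limit to 2 gave 116, 352, 401, 252 and 251, and dropping it gave 5635, 6915, 8056, 7428 and 6079. They were 69, 365, 547, 302 and 204 under the negative binomial test, which allows for more variation between cultures, itself unmeasured. Depth limits SNAI1, CDH2 and ZEB2 most.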

Other observations

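Genes with the most similar profiles were found as the smallest Euclidean distance over the 3 log2 ratios against control, among 10662 genes with at least 100 reads in some library. The ratios share the control library, and with 3 values per gene a small distance is a description only. The genes nearest to VIM included IL17RC (distance 0.058, with 222, 265, 478 and 554 reads in the control, NBT, trametinib and combination libraries) and CALCOCO1. CDH1 was nearest to TRIM74, TFAP2A and MYORG, of which TFAP2A, an AP-2 transcription factor of epithelium, had 2624, 1708, 2812 and 1739 reads. SNAI2 was nearest to AMOTL2 (distance 0.021, with 3493, 2761, 3633 and 3025 reads), CLEC11A and KIF15. FN1 was nearest to CCNF, NHS and ANLN, and ZEB1 to PMAIP1, FAM110C and SERPINB2.

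Of the ductal epithelial markers, SOX9 had 1183 reads in the control library, 1016 under NBT, 169 under trametinib and 201 under the combination, and KRT18 had 41334, 38414, 14162 and 14049. Both fell under trametinib and under the combination. Against the control, KRT8 (63594, 57181, 38101 and 26811 reads) and KRT7 (77, 71, 39 and 33) were called lower under the combination only, and EPCAM (3502, 3275, 3113 and 3383) was not called. Under trametinib the log2 ratio of KRT7 was -0.99 (-1.59 to -0.42), just short of the limit. Of the 6 markers in the table, 2 were called lower and 1 higher under trametinib, and 4 and 1 under the combination. Of all genes, 2.15% were called lower and 3.82% higher under trametinib, and 3.69% and 4.73% under the combination. KRT18 and VIM, an epithelial and a mesenchymal intermediate filament gene, had opposite calls against the control under trametinib and under the combination. The VIM call under trametinib was lost with TMM and median-of-ratios factors. KRT5, a gene of basal epithelium, went another way, with 24906, 14518, 67741 and 24441 reads, highest under trametinib alone. MUC1, a membrane mucin, rose under trametinib and under the combination, with 63, 83, 229 and 138 reads. The same libraries had the higher VIM level, and the part of these markers in it was not tested.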
